A study of Homo sapiens with 25 samples.

Results

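Constant active enhancers under 10 kb are stretches of chromatin in HCT116 cells that carried acetylated lysine 27 of histone H3 (H3K27ac) and mono-methylated lysine 4 (H3K4me1) in every library, and no tri-methylated lysine 4 (H3K4me3). They were found by merging the peaks of the 4 H3K27ac lists into regions. A region was kept where all 4 lists had a peak in it, where it was under 10000 bp wide, where it overlapped peaks of all 4 H3K4me1 lists and where no peak of either H3K4me3 list touched it. This gave 7406 enhancers of 186853 merged H3K27ac regions (3.96%), or 21.4% of the 34631 regions that all 4 H3K27ac lists held. Because those peaks chose the enhancers, H3K27ac and H3K4me1 values are given below as a description only, and the tests concern MLL4 and FOXD2 tag peaks, which the choice did not use.

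HCT116 is a human colorectal carcinoma line of epithelial cells. FOXD2 cells were transduced with a pSin lentivirus carrying the full coding sequence of FOXD2, a forkhead transcription factor, and control cells with the empty pSin vector, and both were selected with puromycin. H3K27ac, H3K4me1 and MLL4 had 2 libraries each in FOXD2 and in control cells, and H3K4me3 had 1 each. FOXD2 itself was precipitated from HCT116 cells given a plasmid for FOXD2 with FLAG and 6xHis tags, with 2 libraries for the 6xHis antibody and 2 for the FLAG antibody. No tag library came from cells without the tags, so tag peaks have no background of that kind. The labels do not say whether replicates were separate cultures, so p-values measure the spread between libraries only. The cells were assayed in bulk, so the share of cells with a mark and the strength of the mark per cell cannot be told apart.

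Enhancers are stretches of regulatory DNA that act on promoters at a distance. H3K4me1 marks enhancers whether or not they are in use and is placed by the methyltransferases MLL3 and MLL4, encoded by KMT2C and KMT2D. H3K27ac, placed by the acetyltransferases CBP and p300, marks the enhancers in use, while H3K4me3 marks promoters. Forkhead factors bind DNA through a winged-helix domain, and several of them are known to open enhancers for other factors.

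The bases of most enhancers were not used here, since no genome came with the files. RefSeq start windows, from 250 bases before to 50 bases after an annotated transcription start (GRCh38.p14, the build the peaks were called on as hg38), were used where a window lay wholly inside an enhancer. There were 371 such windows, of 335 genes, in 321 enhancers (4.33%). Those printed lie in enhancers that at least 2 MLL4 lists held and contain an AP-1 or forkhead motif, and CMIP is added because its enhancer was held by all 4 MLL4 lists. Capitals mark AP-1 motifs (TGANTCA), and in GPSM1 a forkhead motif (TGTTTAC), while the CMIP window holds neither and has no capitals. Both motifs were searched on both strands, and all sequences read 5′ to 3′ on the strand of the gene.
EGFR, chr7:55109589-55109888, plus strand: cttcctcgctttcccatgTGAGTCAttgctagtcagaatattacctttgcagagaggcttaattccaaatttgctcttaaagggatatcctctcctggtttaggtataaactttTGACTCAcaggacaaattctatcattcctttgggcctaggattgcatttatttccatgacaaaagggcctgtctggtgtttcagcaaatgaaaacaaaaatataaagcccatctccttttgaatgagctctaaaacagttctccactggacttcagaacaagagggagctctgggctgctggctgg
RNF43, chr17:58402672-58402971, minus strand: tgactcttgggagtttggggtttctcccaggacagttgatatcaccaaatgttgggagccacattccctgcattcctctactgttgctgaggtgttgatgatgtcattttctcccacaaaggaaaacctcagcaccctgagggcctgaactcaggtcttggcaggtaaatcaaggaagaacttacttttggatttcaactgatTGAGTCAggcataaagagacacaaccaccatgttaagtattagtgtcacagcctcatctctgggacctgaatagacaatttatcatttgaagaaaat
KSR1, chr17:27471714-27472013, plus strand: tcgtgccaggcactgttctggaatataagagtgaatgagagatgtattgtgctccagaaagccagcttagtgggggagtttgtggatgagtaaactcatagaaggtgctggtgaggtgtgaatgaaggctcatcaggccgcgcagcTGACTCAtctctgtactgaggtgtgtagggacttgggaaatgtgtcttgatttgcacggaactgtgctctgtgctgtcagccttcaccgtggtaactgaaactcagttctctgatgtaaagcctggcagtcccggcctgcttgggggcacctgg
LCN2, chr9:128149203-128149502, plus strand: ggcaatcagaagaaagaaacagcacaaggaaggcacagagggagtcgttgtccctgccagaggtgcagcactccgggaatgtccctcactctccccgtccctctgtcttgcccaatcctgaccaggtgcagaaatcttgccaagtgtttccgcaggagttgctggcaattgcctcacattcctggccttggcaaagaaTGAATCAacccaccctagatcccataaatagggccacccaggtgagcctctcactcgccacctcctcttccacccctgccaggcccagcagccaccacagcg
TSPAN10, chr17:81642055-81642354, plus strand: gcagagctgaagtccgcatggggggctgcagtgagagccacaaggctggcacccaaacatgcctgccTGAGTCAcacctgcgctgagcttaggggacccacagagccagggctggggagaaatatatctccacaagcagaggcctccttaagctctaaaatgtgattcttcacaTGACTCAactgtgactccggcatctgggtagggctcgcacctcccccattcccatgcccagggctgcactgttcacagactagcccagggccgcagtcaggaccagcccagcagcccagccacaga
GPSM1, chr9:136352786-136353085, plus strand: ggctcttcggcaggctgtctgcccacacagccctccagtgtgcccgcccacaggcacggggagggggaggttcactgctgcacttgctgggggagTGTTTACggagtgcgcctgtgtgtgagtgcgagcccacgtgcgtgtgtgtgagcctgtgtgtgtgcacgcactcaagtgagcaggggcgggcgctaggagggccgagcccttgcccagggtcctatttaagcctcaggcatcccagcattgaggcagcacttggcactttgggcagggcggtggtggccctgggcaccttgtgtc
CMIP, chr16:81495104-81495403, plus strand: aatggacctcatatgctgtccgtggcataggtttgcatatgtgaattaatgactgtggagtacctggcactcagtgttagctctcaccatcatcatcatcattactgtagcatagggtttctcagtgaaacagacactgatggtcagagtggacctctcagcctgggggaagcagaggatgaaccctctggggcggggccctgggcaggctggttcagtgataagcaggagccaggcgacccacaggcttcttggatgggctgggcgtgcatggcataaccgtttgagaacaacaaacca

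The windows inside the enhancers differed in base content from those of H3K4me3-marked regions. An AP-1 motif, bound by FOS and JUN dimers, was found in 60 of 371 windows (16.2%) inside the enhancers. The share was 21.2% of 189 windows inside primed regions (H3K4me1 in all 4 lists, with no H3K27ac and no H3K4me3 peak), 4.67% of 11322 windows inside promoter-marked regions (H3K27ac in all 4 lists, under 10 kb, with H3K4me3 in both lists) and 7.68% of all 34961 windows. The enhancers' windows thus held the motif more often than promoter-marked windows and less often than primed ones, as counted here without a test. For the TEAD motif GGAATG, bound by the partners of YAP, the share was 19.4% inside the enhancers, against 20.6%, 10.5% and 14.04% inside primed regions, inside promoter-marked regions and in all windows.

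The forkhead motif TGTTTAC was found in 13 of the enhancers' windows (3.50%), in 7.94% of primed windows, in 2.19% of promoter-marked windows and in 3.42% of all windows. Motifs common in CpG-rich promoters had the reverse order. The Sp/KLF motif GGGCGG was in 31.8% of the enhancers' windows, 8.99% of primed windows, 72.0% of promoter-marked windows and 45.0% of all windows. The ETS motif CCGGAAG was in 2.96%, 2.65%, 19.8% and 10.3% of the same 4 sets. The median number of CpG dinucleotides per window was 7 inside the enhancers, 3 inside primed regions, 27 inside promoter-marked regions and 14 over all windows. A match is a run of letters and says nothing about binding, and the 5 motifs were not checked for overlap with each other beyond their different letters.

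Hairpins of 31 miRNAs, of 1558 in the RefSeq table, also lay wholly inside the enhancers, in 26 of them. The mature forms below were chosen after the peaks in their enhancers were seen. They belong to clustered or widely studied miRNAs and to miR-4711, whose enhancer all 4 tag lists held, and the seed (bases 2 to 8) is in capitals.
hsa-miR-192-5p: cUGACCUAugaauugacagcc
hsa-miR-194-5p: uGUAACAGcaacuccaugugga
hsa-miR-29a-3p: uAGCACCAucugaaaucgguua
hsa-miR-29b-3p: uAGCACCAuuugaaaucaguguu
hsa-miR-33b-5p: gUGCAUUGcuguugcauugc
hsa-miR-4711-5p: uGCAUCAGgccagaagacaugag
The miR-192 and miR-194-2 hairpins, products of 1 primary transcript that is abundant in intestinal epithelium, lay on the minus strand in the enhancer at chr11:64888502-64895810. That enhancer had deposited H3K27ac folds of 4.26 and 5.77 in FOXD2 cells and 5.13 and 5.84 in control cells, and no MLL4 or tag peak. Both groups overlapped there. The miR-29a and miR-29b-1 hairpins shared the enhancer at chr7:130873848-130878134, and their 3p forms have the same seed, the one seed shared among the 49 mature forms listed for 30 of the hairpins. It was held by 2 tag lists and no MLL4 list. The enhancer of miR-4711, at chr1:59730455-59734883, was the one with a hairpin that all 4 tag lists held, and 2 MLL4 lists held it as well.

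In width, the enhancers had a median of 2351 bp, with quartiles of 1551 and 3691 bp and limits of 439 and 9962 bp, and covered 21.0 Mb in all. They were narrower than promoter-marked regions (14443 regions, median 2864 bp) and wider than primed regions (11184 regions, median 1265 bp). Primed regions are merged H3K4me1 peaks and the other classes merged H3K27ac peaks, so their widths are extents of different marks. Of the enhancers, 59.2% overlapped a protein-coding gene. No end of any annotated gene was within 2 kb of 72.5% of them. The share over 2 kb from gene ends was 84.2% for primed regions and 22.6% for promoter-marked regions. The nearest H3K4me3 peak was a median of 9.99 kb from an enhancer and 35.4 kb from a primed region, and 32.7% of the enhancers had one within 5 kb. Another enhancer of the set lay within 10 kb of 2376 of them (32.1%).

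The upper limit on width falls within a run of similar regions. The widest enhancers were those nearest to DUSP5 (9962 bp), a phosphatase that inactivates ERK, ATXN7L1 (9953 bp) and CASZ1 (9895 bp), a zinc finger factor. The narrowest regions beyond the limit lay in CACNA1G (10056 bp), TMEM131 (10083 bp) and AMZ1 (10192 bp). TMEM131's region was held by all 4 MLL4 and all 4 tag lists, CACNA1G's by 2 MLL4 lists and AMZ1's by none of these. There were 94 regions of 10 kb or more that met the rest of the rule, with a median of 11960 bp.

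Several lists stood apart before any comparison. The second FOXD2 MLL4 list had 4676 peaks, against 22493 in the first FOXD2 list and 16046 and 13571 in the control lists. The H3K27ac lists had 85122 and 141008 peaks in FOXD2 cells and 129995 and 85832 in control cells, and the tag lists had between 26942 and 48194. How many reads each list rests on is unknown here, so depth could not be weighed. Results without the second FOXD2 MLL4 list or without 1 H3K27ac list are given only where this is stated.

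**Figure D1:**
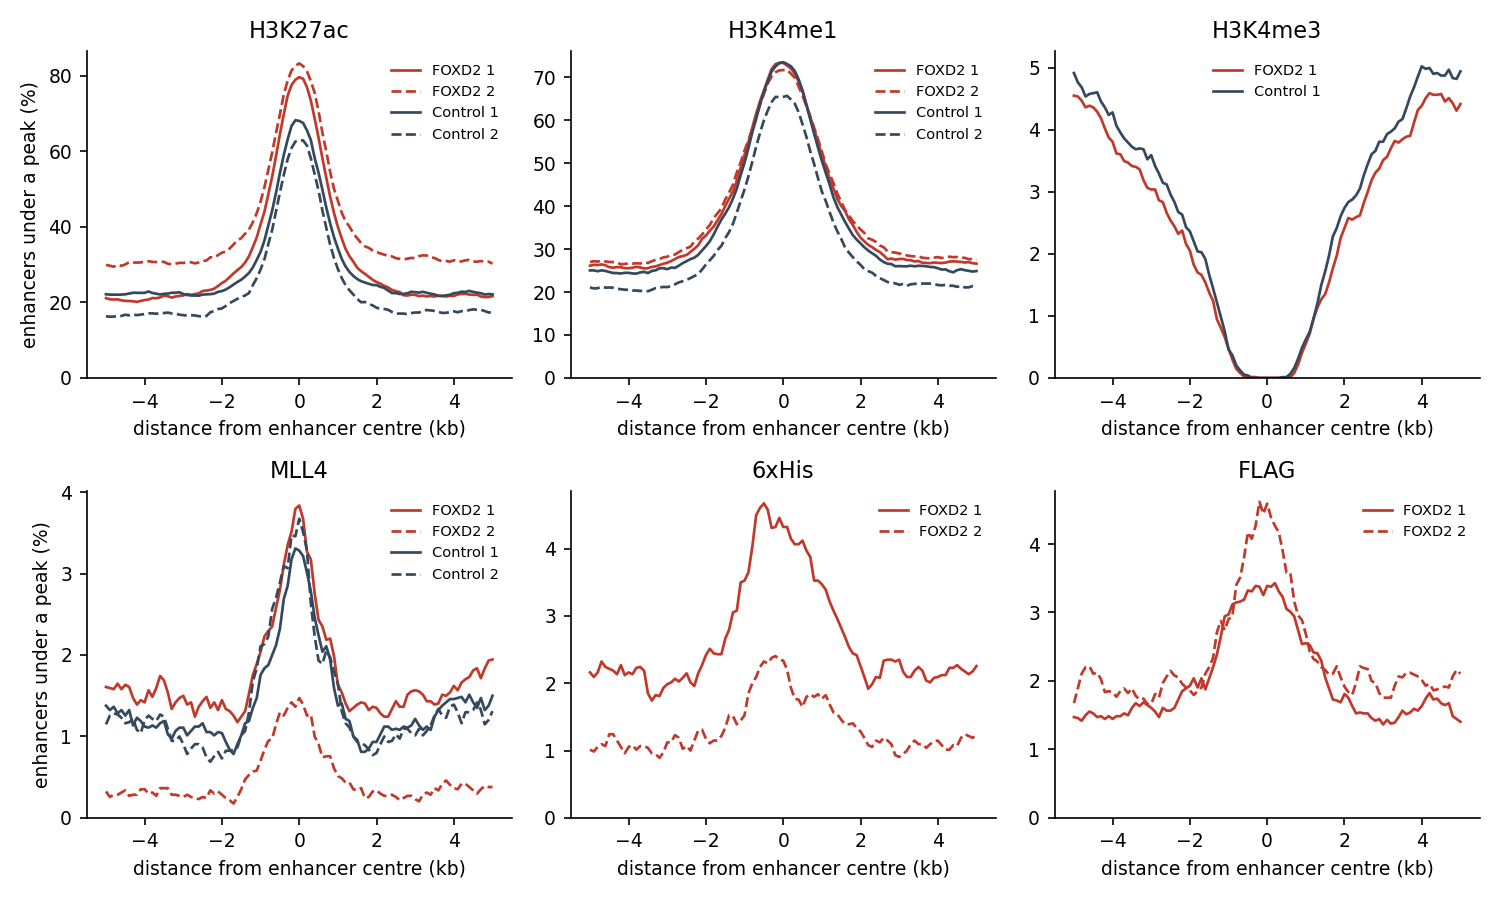
Share of the 7406 constant active enhancers whose bases lay under a peak (vertical axis, percent; each panel has its own scale from 0) by distance from the enhancer's centre (horizontal axis, kb), 1 line per library, FOXD2 in red and control in dark blue. At the centre, H3K27ac peaks covered 79.6% and 83.2% of the enhancers in FOXD2 cells and 68.0% and 62.9% in control cells, and MLL4 and tag peaks covered under 5% each.

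H3K27ac peaks covered more of the enhancers' bases in FOXD2 cells than in control cells. The covered share was 66.4% and 76.5% in the FOXD2 libraries, against 57.3% and 49.2% in the control libraries. The groups did not overlap, and the means were 71.4% ± 7.12 in FOXD2 cells and 53.2% ± 5.76 in control cells (SD, n = 2 each), a difference of 18.2 percentage points. Leaving out 1 library at a time, this difference ran from 15.4 to 23.8 points. With all libraries it was 14.7 points in regions of 10 kb or more and 11.9 points in promoter-marked regions. In the regions of 10 kb or more the groups overlapped, with 67.1% and 83.9% in FOXD2 cells against 69.1% and 52.4% in control cells. In promoter-marked regions they did not overlap. Both FOXD2 lists covered more of the enhancer than both control lists at 2680 enhancers (36.2%, beside 29.4% of all regions held by the 4 H3K27ac lists), and the reverse held at 495 (6.68%, beside 7.1%). Since H3K27ac peaks chose the enhancers, nothing is read from these counts.

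The median H3K27ac fold enrichment of peaks in the enhancers, the authors' own value for each peak, was 4.38 and 5.34 in FOXD2 cells and 4.27 and 4.58 in control cells. Peaks of the FOXD2 lists in the enhancers were wider, with medians of 1131 and 1217.5 bp against 828 and 762 bp in the control lists. There were fewer of them per enhancer, 1.23 and 1.29 in FOXD2 cells against 1.43 and 1.38 in control cells. In 47.9% of the enhancers each of the 4 lists had exactly 1 peak.

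For H3K4me1, peaks covered 60.9% and 60.2% of the enhancers' bases in FOXD2 cells and 59.1% and 51.9% in control cells. The means were 60.6% ± 0.512 in FOXD2 cells and 55.5% ± 5.10 in control cells (SD, n = 2 each), so the first control library was close to both FOXD2 libraries. Both FOXD2 lists covered more than both control lists at 31.8% of the enhancers (beside 19% of regions held by the 4 H3K27ac lists), and the reverse held at 19.2% (beside 13.6%). Those regions, unlike the enhancers, did not have to hold H3K4me1, and one without any H3K4me1 peak can show neither order. The shares are therefore not of like sets. In 36.1% of the enhancers the whole region lay inside 1 merged H3K4me1 region, so that there the acetylated stretch was narrower than the methylated one.

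The members with the highest ranks of H3K27ac in all 4 lists lay at genes of several kinds. The enhancer inside RPTOR (chr17:80855266-80861770), which encodes the mTORC1 subunit raptor, had folds of 13.2 and 17.1 in FOXD2 cells and 12.5 and 17.5 in control cells. It was held by all 4 tag lists and 3 MLL4 lists, the second FOXD2 MLL4 list being the one without a peak. Levels of H3K27ac overlapped between the groups there.

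The enhancer inside CMIP (chr16:81491788-81498658), which encodes the c-Maf inducing protein, had H3K27ac folds of 12.2 and 17.3 in FOXD2 cells and 8.42 and 12.2 in control cells. All 4 MLL4 lists held it, with folds of 8.09 and 6.62 in FOXD2 cells against 3.57 and 3.00 in control cells, and no tag list did. The enhancer near BTC, which encodes the EGFR ligand betacellulin, had the highest single control fold of the 10 (26.5 in the second control library, 17.3 in the first) with 12.2 and 10.7 in FOXD2 cells. The other 7 were at OR2V2, SH3TC2, NSMCE2, PHLDB2, CD38, ARL14EPL and LAMA2, the last encoding a laminin subunit of basement membranes. Of these 10 enhancers, those at RPTOR, NSMCE2, PHLDB2, BTC and LAMA2 were held by all 4 tag lists, and those at CMIP and SH3TC2 by all 4 MLL4 lists.

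MLL4 peaks were found at 16.7% and 6.08% of the enhancers in the FOXD2 libraries, against 14.2% and 15.1% in the control libraries. The control libraries lay between the FOXD2 libraries. The means were 11.4% ± 7.51 in FOXD2 cells and 14.7% ± 0.707 in control cells (SD, n = 2 each), and the difference of -3.26 percentage points was within the spread between libraries (two-sided exact permutation test, p = 1; 2 libraries against 2 cannot go below 0.33). Per kb of enhancer, MLL4 peaks covered 26.98 and 8.59 bases in FOXD2 cells and 20.2 and 20.7 bases in control cells, a difference of -2.70 bases per kb (exact permutation test, p = 1). Without the short second FOXD2 list, the share was 2.05 points and the covered length 6.50 bases per kb higher in FOXD2 cells. The direction in the lists as deposited thus rests on that list. At a −log10 q of 5 or more the differences were -7.80 points and -10.3 bases per kb (exact permutation test, p = 0.33 for each). That is the smallest p possible, so both FOXD2 lists lay below both control lists there. With all MLL4 lists at equal length the share difference was -0.123 points.

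Of the enhancers, 2404 (32.5%) were held by at least 1 MLL4 list, beside 12.9% of all merged H3K27ac regions, most of which are narrower, and 46.9% of regions held by all 4 H3K27ac lists, which include promoters. All 4 lists held 144 (1.94%, 95% Wilson interval 1.65 to 2.28, beside 1.17% and 5.87% of those 2 sets). Both FOXD2 lists and neither control list held 56 (0.756%, interval 0.583 to 0.981, beside 0.18% and 0.442%), and both control lists and neither FOXD2 list held 236 (3.19%, interval 2.81 to 3.61, beside 1.01% and 4.22%). The enhancers were thus above all merged regions in each count, and below the regions held by all 4 H3K27ac lists in each except the FOXD2-only one. Intervals cover the counting of regions only. The counts followed the short list: without it, 705 enhancers were in the remaining FOXD2 list and neither control list, and 264 in all remaining lists. The first FOXD2 list alone held 649 enhancers and the second alone 82.

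Of the enhancers with MLL4 peaks in both FOXD2 libraries and no control library, the 4 ranked highest were far from genes. They lay at chr16:48918035-48920901, chr10:4538280-4542197 and chr2:111656467-111661014, with no protein-coding gene within 100 kb, and 80.6 kb from COPS8 (chr2:237181030-237187830), which encodes a subunit of the COP9 signalosome. The first of these had MLL4 folds of 10.6 and 11.3 in the FOXD2 libraries. There H3K27ac peaks covered 100% and 93.8% of the enhancer in FOXD2 cells and 29.4% and 35.4% in control cells.

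Among the enhancers that ranked highest in both control libraries, with no FOXD2 MLL4 peak, were those in ATOX1 (chr5:151744034-151749845), which encodes a copper chaperone, near RAB11FIP4, which encodes a Rab11 effector, and in SKAP1 (chr17:48237090-48246448), which encodes an adaptor of T cell signalling. ATOX1's enhancer had MLL4 folds of 13.2 and 11.7 in the control libraries. H3K27ac peaks covered 75.8% and 47.5% of it in FOXD2 cells and 48.0% and 80.7% in control cells, so H3K27ac overlapped between groups there. SKAP1's enhancer was held by all 4 tag lists, and those at ATOX1 and RAB11FIP4 by none.

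Over each set as a whole, the histone marks differed with the MLL4 state. In the 56 enhancers with MLL4 in FOXD2 cells only, H3K27ac peaks covered 79.8% and 78.4% of bases in FOXD2 cells, against 42.3% and 36.6% in control cells. H3K4me1 peaks covered 75.7% and 76.3% of them in FOXD2 cells, against 52.6% and 49.7% in control cells. The differences of means were 39.6 and 24.9 percentage points in these enhancers, beside 18.2 and 5.04 points over all enhancers.

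In the 236 enhancers with MLL4 in control cells only, H3K27ac covered 77.9% and 66.8% of bases in FOXD2 cells and 57.9% and 60.8% in control cells. H3K4me1 covered 73.0% and 71.1% in FOXD2 cells and 72.7% and 69.1% in control cells, so for H3K4me1 the groups overlapped. At these enhancers the H3K27ac difference was 13.0 points and had the sign it had over all enhancers. In the 144 enhancers of all 4 MLL4 lists, H3K27ac covered 90.8% and 68.1% in FOXD2 cells and 50.0% and 56.7% in control cells. H3K4me1 covered 83.4% and 84.7% of them in FOXD2 cells and 76.1% and 73.1% in control cells. The differences of means were 26.1 points for H3K27ac and 9.46 for H3K4me1. These are descriptions, since H3K27ac and H3K4me1 chose the enhancers, and the difference between the sets was not tested.

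**Figure D2:**
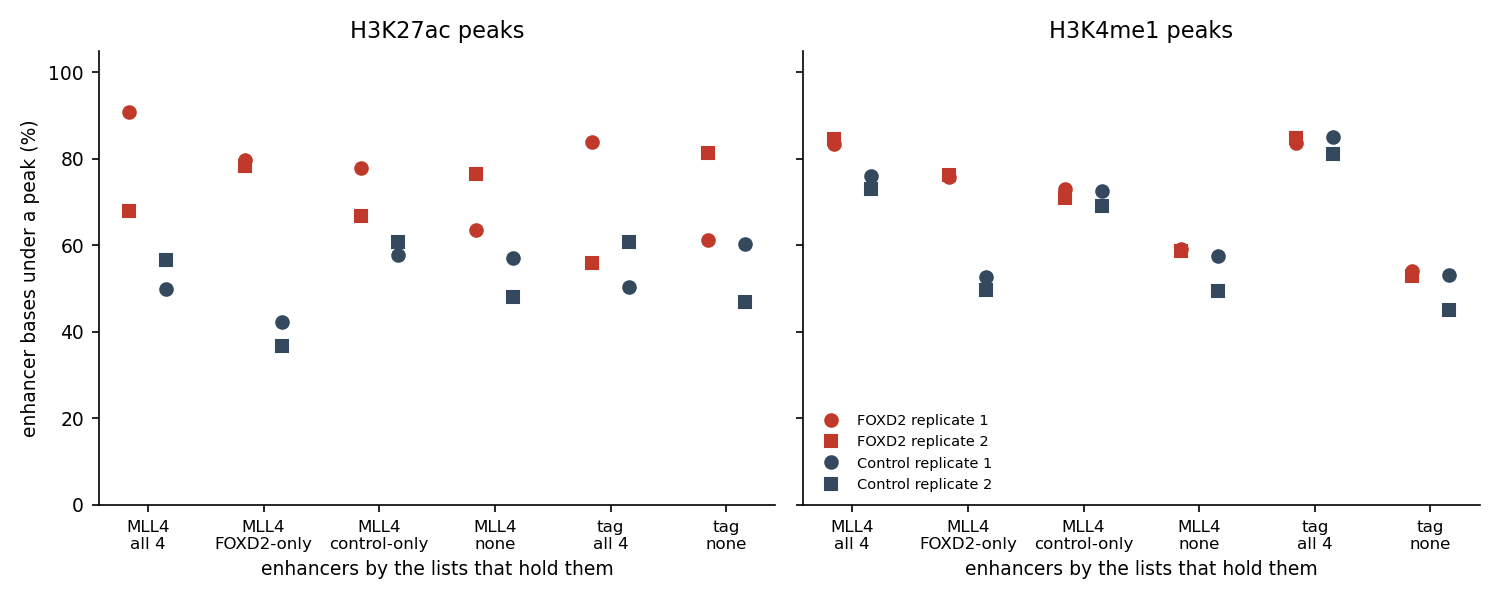
Share of enhancer bases under H3K27ac peaks (left) and H3K4me1 peaks (right), in percent, for enhancers grouped by the MLL4 and tag lists that hold them; each point is 1 library, FOXD2 in red left of control in dark blue. In enhancers with MLL4 in FOXD2 cells only, both FOXD2 libraries lie above both control libraries for both marks (79.8% and 78.4% against 42.3% and 36.6% for H3K27ac). The same order holds for both marks where all 4 MLL4 lists or none had a peak. The H3K27ac differences of means were smaller there (26.1 and 17.5 points, against 39.6).

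Tag peaks of FOXD2 were found at 15.2% and 8.80% of the enhancers with the 6xHis antibody and at 12.9% and 15.6% with the FLAG antibody. At least 1 tag list held 1912 enhancers (25.8%, beside 11.1% of all merged H3K27ac regions and 29.6% of regions held by all 4 H3K27ac lists), and all 4 tag lists held 280 (3.78%, interval 3.37 to 4.24, beside 1.65% and 6.23%). Both 6xHis lists held 473 and both FLAG lists 549. Leaving out the second 6xHis list, the shortest, gave 452 enhancers in all remaining lists. The median fold of tag peaks in the enhancers, between 3.97 and 4.43, was close to that of each whole list, between 3.91 and 4.40.

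Set against other classes, the enhancers had MLL4 peaks more often than primed regions and less often than promoter-marked ones. Over the 4 MLL4 lists the mean share was 13.0% ± 4.75 for the enhancers, against 1.46% ± 0.786 for primed regions and 36.7% ± 16.9 for promoter-marked regions (SD, n = 4 lists). The enhancers were higher than primed regions in 4 of 4 lists and lower than promoter-marked regions in 4 of 4. Each gave p = 0.13 in a two-sided exact sign-flip permutation test, the smallest p that 4 lists can give, and 0.15 after Benjamini-Hochberg adjustment over 6 class comparisons. With equal list lengths the differences were smaller, 5.50 points from primed and -9.29 from promoter-marked regions, against 11.6 and -23.7 as deposited.

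The same order was seen within ranges of width. Width is that of merged H3K4me1 peaks for primed regions and of merged H3K27ac peaks for the other classes. Among regions of 2000 to 5000 bp, the mean MLL4 share was 14.9% for the enhancers, 3.24% for primed regions and 36.7% for promoter-marked regions. It was also seen from 500 to 1000 bp (enhancers 5.12%, primed 0.533%, promoter-marked 14.6%) and from 5000 to 10000 bp (enhancers 25.2%, primed 4.91%, promoter-marked 57.6%). Among regions of 10 kb or more, 36.7% had MLL4, but per kb these large regions and the enhancers had similar values, 17.7 and 19.1 bases. The per-kb difference of 1.40 ranged from -9.58 to 7.18 bases over the lists (exact sign-flip test, p = 0.75).

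**Figure D3:**
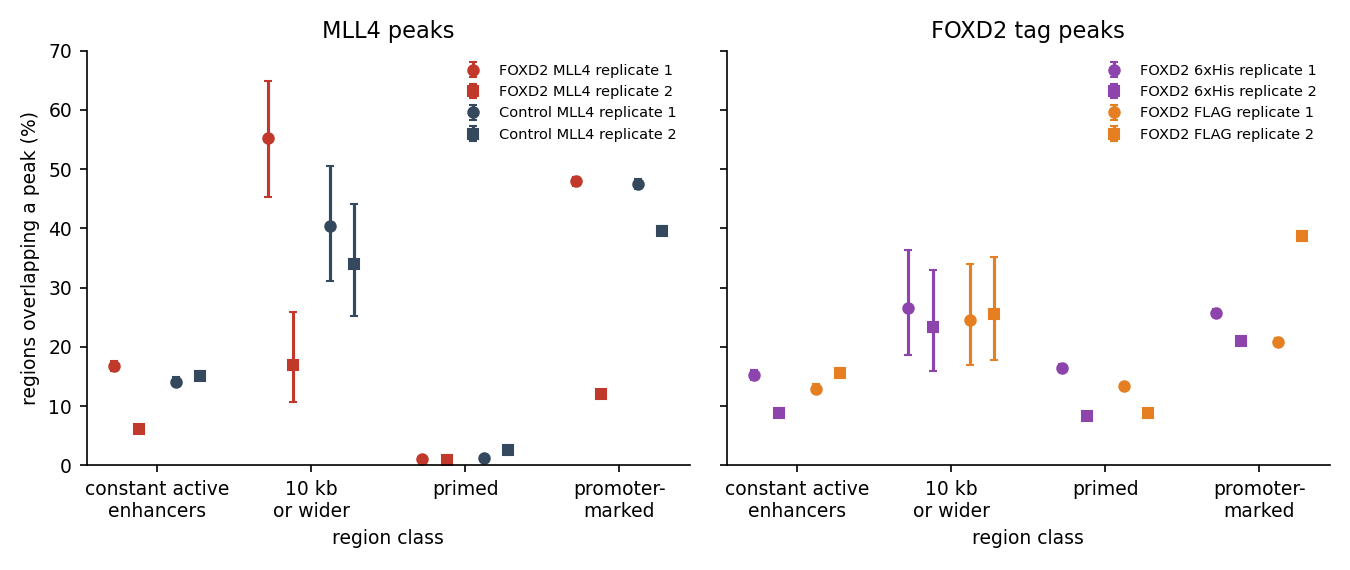
Share of regions that overlap an MLL4 peak (left) or a FOXD2 tag peak (right), in percent, for the constant active enhancers (7406), the 94 regions of 10 kb or more, 11184 primed regions and 14443 promoter-marked regions; each point is 1 library with its 95% Wilson interval. In each MLL4 list the enhancers lie above primed regions and below promoter-marked regions, and the second FOXD2 MLL4 list is the lowest in all 4 classes.

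The mean tag shares had the same order, with a smaller difference between the enhancers and primed regions. The mean tag share was 13.1% ± 3.11 for the enhancers, 11.7% ± 3.86 for primed regions and 26.6% ± 8.43 for promoter-marked regions (SD, n = 4 lists). The enhancers were below promoter-marked regions in 4 of 4 lists (exact sign-flip test, p = 0.13, adjusted 0.15). Between the enhancers and primed regions the difference was 1.39 percentage points, with a range of -1.28 to 6.72 over the lists and the enhancers higher in 2 of 4 (exact sign-flip test, p = 0.75).

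From 2000 bp upwards the primed regions, by H3K4me1 width, had tag peaks more often than enhancers in the same range of H3K27ac width. Among regions of 2000 to 5000 bp, the mean tag share was 14.02% for the enhancers and 20.7% for primed regions, and from 5000 to 10000 bp it was 18.0% for 884 enhancers and 42.4% for 56 primed regions. Below that the enhancers were slightly higher, with 10.97% against 10.6% of primed regions from 1000 to 2000 bp and 8.82% against 7.80% from 500 to 1000 bp. At a −log10 q of 5 or more the difference at 2000 to 5000 bp was -0.373 points, against -6.68 as deposited. Per kb, tag peaks covered 26.9 bases of the enhancers and 40.9 bases of primed regions, and the enhancers were lower in 3 of 4 lists (difference -13.97 bases, exact sign-flip test, p = 0.25). The second FLAG list was the exception, with 31.2 bases per kb in the enhancers and 29.6 in primed regions.

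**Figure D4:**
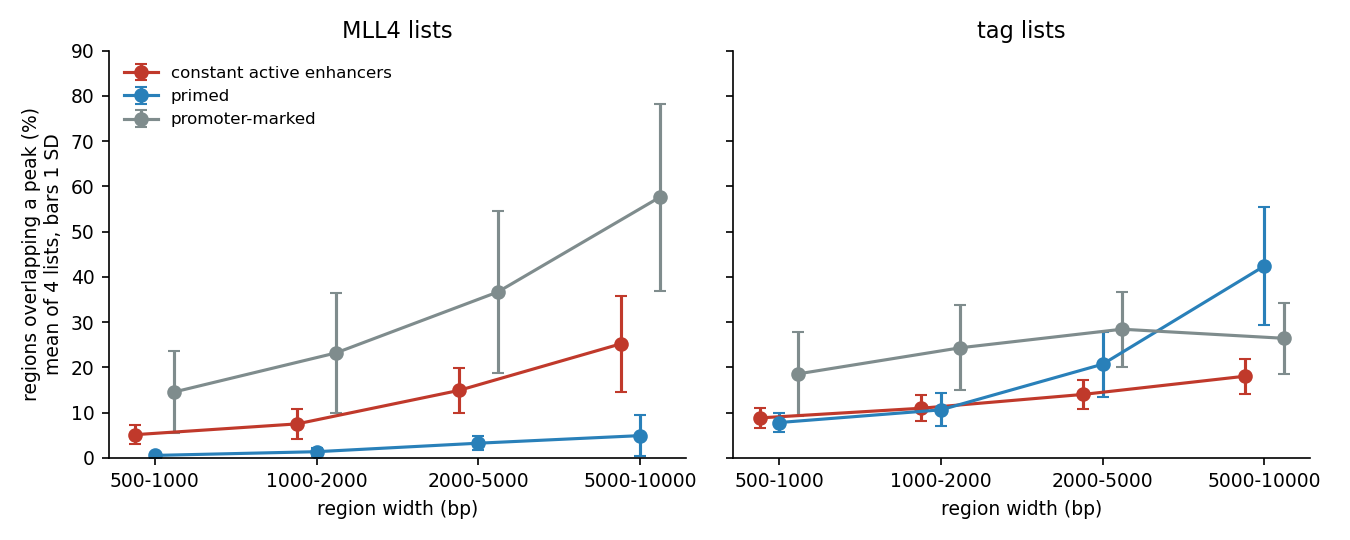
Mean share of regions overlapping a peak over the 4 MLL4 lists (left) and the 4 tag lists (right), in percent, by region width in bp. Bars are 1 SD over lists. Width is that of merged H3K4me1 peaks for primed regions and of merged H3K27ac peaks for the other classes. The MLL4 share of the enhancers lies above that of primed regions in the 4 width ranges plotted, while the tag share lies below it from 2000 bp upwards (14.02% against 20.7% at 2000 to 5000 bp).

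Enhancers held by more MLL4 lists were more often held by the tag lists. The share of enhancers held by all 4 tag lists was 2.32% where no MLL4 list had a peak, 3.97% with 1 MLL4 list, 8.15% with 2, 13.96% with 3 and 19.4% with all 4 (28 of 144, interval 13.8 to 26.7). They were also wider, with a median of 2087.5 bp for none and 3426 bp for 4. Among enhancers of 2000 to 5000 bp alone, the tag share was still 2.28% with no MLL4 list and 20.7% with 4. From 1000 to 2000 bp the rise was not steady, with 5.61% for 2 MLL4 lists, 2.78% for 3 (1 of 36) and 6.67% for 4 (1 of 15). From 5000 to 10000 bp it was 4.38% with no MLL4 list, 4.23% with 1 and 22.9% with 4. Over all widths, each tag list by itself also rose with the number of MLL4 lists.

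Tag peaks were also counted at the enhancers with MLL4 in FOXD2 cells only and in control cells only. At least 1 tag list held 27 of the 56 (48.2%, interval 35.7 to 61.0) and 107 of the 236 (45.3%, interval 39.1 to 51.7). All 4 tag lists held 3 of the 56 (5.36%, interval 1.84 to 14.6) and 26 of the 236 (11.02%, interval 7.63 to 15.7). Both pairs of intervals overlapped, and neither difference was tested. Over all enhancers held by 2 MLL4 lists, the shares were 40.0% for at least 1 tag list and 8.15% for all 4. Over all enhancers they were 25.8% and 3.78%.

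**Figure D5:**
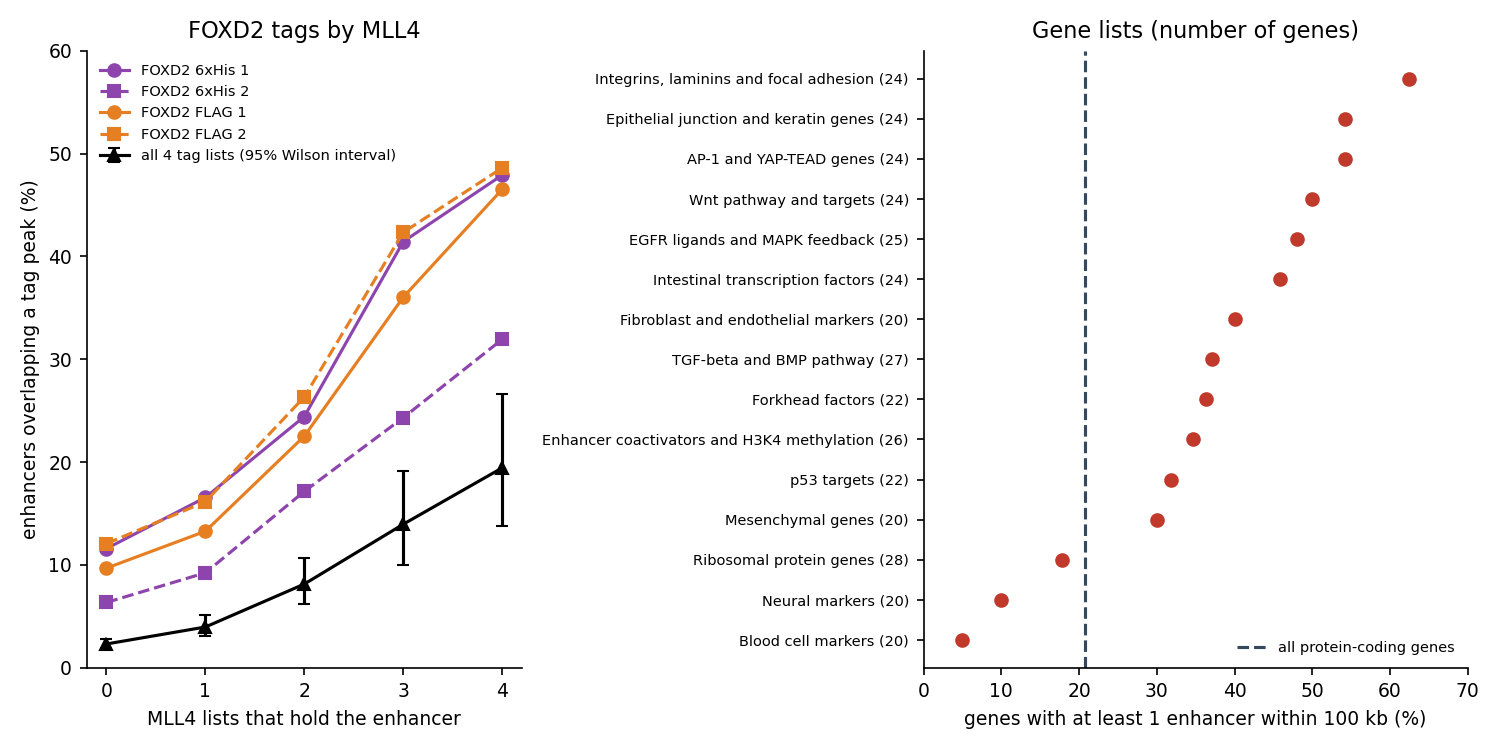
Left, share of enhancers overlapping a FOXD2 tag peak, in percent, by the number of MLL4 lists that hold them, per tag list and for all 4 tag lists (95% Wilson intervals); the last share was 2.32% with no MLL4 list and 19.4% with 4. Right, share of the genes of each list with at least 1 enhancer within 100 kb, in percent, with the share over all protein-coding genes (20.7%) as a dashed line.

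Distances between summits were measured in the 28 enhancers that all 4 MLL4 and all 4 tag lists held. These enhancers were chosen for holding both kinds of peak, and no distance for comparison was measured, so closeness was not tested. The median distance of an MLL4 summit to the nearest tag summit was 70 and 75.5 bp in the FOXD2 libraries and 83 and 39 bp in the control libraries. The highest-ranked lay 18.7 kb from CAVIN2 (chr2:191865820-191869221), which encodes a caveolar coat protein, with MLL4 folds of 8.64 and 8.29 in FOXD2 cells against 6.17 and 7.14 in control cells. Its tag folds were 6.52 and 6.14 for 6xHis and 7.09 and 8.73 for FLAG. At this enhancer the MLL4 folds of the groups did not overlap, with both FOXD2 libraries higher.

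Others of the 28 showed the opposite order for MLL4. The enhancer in PTPN14 (chr1:214442775-214450648), which encodes a phosphatase that restrains YAP, had MLL4 folds of 6.53 and 8.01 in FOXD2 cells against 10.995 and 13.7 in control cells. In ELMO1 (chr7:37030765-37035041), which encodes a Rac regulator, they were 6.21 and 5.68 in FOXD2 cells against 9.12 and 13.7 in control cells. The remaining 5 named by tag rank lay in ABLIM1, near TANK, PPP3CA and IGSF23, and at chr3:18098699-18101105, with no protein-coding gene within 100 kb. The depth behind each list is unknown, so these orders hold for the lists as deposited. The median fold of the whole MLL4 lists also differed, with 4.79 and 5.87 in FOXD2 cells and 5.23 and 6.04 in control cells.

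Within the enhancers, MLL4 and tag summits differed in where they lay. The central 20% of the enhancer held 30.4% and 38.8% of MLL4 summits in FOXD2 cells and 34.8% and 36.1% in control cells. For tag summits it was 26.5% and 24.9% with 6xHis and 28.1% and 26.7% with FLAG. All 8 lists were thus above the 20% that the central part takes of the length, and each MLL4 list was above each tag list.

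The H3K27ac libraries of 1 group did not cover the tag summits alike. Peaks of the first FOXD2 H3K27ac list covered 66.4% of the enhancers' bases and between 82.6% and 87.3% of the tag summits in them. Those of the second covered more of the bases, 76.5%, and fewer of the tag summits, between 48.1% and 65.7%. In control cells the first list covered 57.3% of bases and between 46.1% and 54.8% of tag summits, and the second 49.2% of bases and between 57.5% and 64.1% of tag summits. For MLL4 summits the ranges overlapped within each group, 75.5% to 93.5% in the first and 65.6% to 86.7% in the second FOXD2 list, and 56.3% to 71.1% and 56.5% to 64.4% in the control lists. Summits of the first FOXD2 MLL4 list were covered more by the second FOXD2 H3K27ac list (86.7%) than by the first (75.5%).

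The same split was seen over whole enhancers. In the 280 enhancers of all 4 tag lists, H3K27ac covered 83.9% and 56.0% of bases in FOXD2 cells and 50.3% and 60.8% in control cells, while in the 5494 with no tag peak it covered 61.3% and 81.4% in FOXD2 cells and 60.3% and 46.8% in control cells. The first FOXD2 and second control libraries were higher at the tagged enhancers, and the second FOXD2 and first control libraries at the untagged ones. H3K4me1 covered between 81.2% and 85.0% of bases in the tagged enhancers in all 4 libraries, against 45.0% to 54.1% in the untagged ones. A choice of enhancers without the first FOXD2 H3K27ac list gave 9446 regions, with a mean tag share of 11.3%.

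Genes were tied to an enhancer by the nearest protein-coding gene within 100 kb of its span, which placed 7010 of the 7406. At least 1 enhancer fell to 4126 of 19974 genes (20.7%), and 168 genes (0.841%) had 5 or more. Genes with an enhancer were longer, with a median span of 46.0 kb against 24.2 kb over all genes. The part of gene length in these counts was not tested. No enhancer fell to FOXD2, KMT2D or KDM6A, the last encoding the H3K27 demethylase of the MLL3 and MLL4 complexes, and 1 fell to KMT2C.

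Most enhancers fell to RAD51B (22 enhancers over 863 kb), a recombination factor gene, of which 20 lay inside the gene and 8 had an MLL4 peak. NSMCE2, which encodes a SUMO ligase of the SMC5/6 complex, had 20 in 275 kb, all inside the gene, of which 11 had a tag peak and 5 were held by all 4 tag lists. GSE1, which encodes a subunit of a histone deacetylase complex, had 18, with an MLL4 peak at 11 and a tag peak at 2. The other genes of the 8 with most enhancers were CMIP (17), the homeobox gene CUX1 (15), CAMTA1 (13), the septin gene SEPTIN9 (12) and SLC39A11 (12), a zinc transporter gene. Of CAMTA1's 13, 1 had an MLL4 peak and none a tag peak, whereas SEPTIN9 had MLL4 at 8 of 12. Over all enhancers, 32.5% had an MLL4 peak, 25.8% a tag peak and 3.78% peaks of all 4 tag lists.

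The gene lists below were chosen with earlier results of these data known, so their shares are a description beside the 20.7% of all genes. Counts of their enhancers with a peak are likewise to be set beside all enhancers, of which 25.8% had a tag peak and 32.5% an MLL4 peak. The epithelial markers each had an enhancer, with 2 at CDH1, EPCAM and KRT19 and 1 at KRT8 and KRT18. Of 24 epithelial junction and keratin genes, 13 had an enhancer (54.2%). Blood cell markers had an enhancer at 1 of 20 genes and neural markers at 2 of 20, while fibroblast and endothelial markers had one at 8 of 20 (40%), led by VWF (3) and by KDR, PDGFRB and PECAM1 (2 each). The median gene span was 13.2 kb for blood, 12.3 kb for neural, 51.7 kb for fibroblast and endothelial markers and 31.4 kb for the epithelial list.

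Adhesion and signalling genes had the largest shares among the 15 lists. Of 24 integrin, laminin and focal adhesion genes, 15 (62.5%) had an enhancer. Their median span was 75.9 kb, against 24.2 kb over all genes and 13.0 kb in the AP-1 and YAP-TEAD list. LPP, a focal adhesion gene 738 kb long, had 9, the actin cross-linker gene ACTN1 had 5 and the adaptor gene PXN had 4. Of 24 AP-1 and YAP-TEAD genes, 13 (54.2%) had one, with 6 inside TEAD1 and 4 each at FOSL2 and YAP1. TEAD1's 6 had no MLL4 or tag peak, and 2 of YAP1's 4 had a tag peak.

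Of 24 genes of the Wnt pathway and its targets, 12 had an enhancer, most at TCF7L2 (6), the nuclear partner of beta-catenin, and 4 each at the receptor gene EPHB2, MYC and RNF43. RNF43 encodes the ligase that removes Frizzled receptors, and the enhancer around its printed start window was held by both control MLL4 lists (folds 4.45 and 5.87) and neither FOXD2 list. That enhancer also had a peak in both FLAG lists (folds 5.25 and 3.28). H3K27ac covered 100% and 26.1% of it in FOXD2 cells and 39.4% and 72.9% in control cells, with overlap between the groups.

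EGFR ligands and MAPK feedback genes had an enhancer at 12 of 25 genes, with 9 at SPRY4, which encodes an inhibitor of receptor tyrosine kinase signalling, and 6 each at DUSP5 and PHLDA1. EGFR itself had 3, all inside the gene. The one around its printed start window, with 2 AP-1 motifs and 1 CpG, had MLL4 folds of 6.64 and 6.75 in the control libraries and no MLL4 peak in the FOXD2 libraries. Its tag folds were 4.75 and 5.53 with 6xHis and 4.81 in the first FLAG library. H3K27ac covered 94.2% and 92.2% of it in FOXD2 cells against 62.3% and 49.1% in control cells, so there H3K27ac was wider in FOXD2 cells while MLL4 was called in control cells only.

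KSR1, which encodes a scaffold of the MAPK cascade, gave the opposite MLL4 pattern. Its printed window's enhancer (chr17:27469718-27474503) had MLL4 folds of 7.12 and 6.80 in the FOXD2 libraries and no MLL4 peak in the control libraries. H3K27ac covered 96.2% and 92.1% of it in FOXD2 cells, against 65.9% and 23.9% in control cells. H3K4me1 covered 100% of it in both FOXD2 libraries, against 73.2% and 67.6% in the control libraries. At this enhancer all 3 measures were higher in both FOXD2 libraries than in either control library.

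The TGF-beta and BMP pathway had an enhancer at 10 of 27 genes (37.0%), but many at a few of them. SMAD3, the receptor-activated effector of TGF-beta, had 11, of which 7 had a tag peak and 3 were held by all 4 tag lists. The inhibitory SMAD6 had 8, and the receptor gene TGFBR2 had 4, each with a tag peak. Of the list's 37 enhancers, 18 had a tag peak and 10 an MLL4 peak, beside 25.8% and 32.5% of all enhancers.

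Intestinal transcription factors had an enhancer at 11 of 24 genes (45.8%), with 3 at ELF3 and 2 each at EHF, ISX and KLF4, among others. Forkhead factors had one at 8 of 22 (36.4%), led by FOXO3 (5), FOXP4 (4), FOXK2 (3) and FOXN3 (3). All 3 of FOXK2 had a tag peak, 2 of them in all 4 lists, against 1 of FOXN3's 3, which was not in all 4. Enhancer coactivator and H3K4 methylation genes had one at 9 of 26 (34.6%), with 7 at the nuclear receptor coactivator gene NCOA3, 5 of them with a tag peak. The p53 targets had one at 7 of 22, most at PMAIP1 (3), which encodes the BH3 protein NOXA, and mesenchymal genes at 6 of 20, most at SPARC (3). Ribosomal protein genes, which are short, had one at 5 of 28 (17.9%), the share nearest to that of all genes.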

How the data were processed

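Among the tools in the submitters' processing notes are MACS2 2.2.7.1 and Bowtie2 2.3.4.1, besides cutadapt 3.4, bedtools and Picard, with hg38 as the build. For 18 of the 25 libraries a peak list was deposited by the authors, each called on its own library, and the 7 inputs are not used here. Per the labels' protocols, MLL4 and tag ChIP used sonicated chromatin fixed with formaldehyde, and histone ChIP used native chromatin cut with MNase. A deposited peak has a score, a −log10 q-value, a −log10 p-value and a fold enrichment, which is a ratio. All 4 belong to single peaks and served here for ranking and filtering inside a list. Folds are also set side by side between lists, as a description only. The largest deposited q-value was 0.01, and neither read depth nor the background library of a list is given in the sources used here.

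Peaks elsewhere than on chromosomes 1 to 22 or X, between 1 and 35 per list, were dropped. Lists were merged with a gap of 0 bp, and a list held a region where at least 1 bp overlapped. The enhancers and the gene lists were chosen with earlier results of these data known. Groups were compared by exact permutation tests and region classes by exact sign-flip tests over lists, and shares carry 95% Wilson intervals. Genes came from RefSeq (GRCh38.p14). Its gene table lacks strand, so gene spans took the place of start sites. Named genes were FOXD2, KMT2C, KMT2D and KDM6A, the 10 enhancers with the lowest H3K27ac rank sums over the 4 lists, the 8 genes with most enhancers, the 8 top enhancers of all MLL4 and tag lists, the 4 top enhancers each of the FOXD2-only and control-only MLL4 sets, up to 3 genes per list (more where tied) and the 3 regions on either side of the width limit. Genes with a printed start window or miRNA and CAMTA1's and SEPTIN9's details were chosen after their values were seen. Some items that this rule names are not reported here. The computation was tested on simulated peak lists, with scipy 1.17.1, pandas 2.3.3 and numpy 2.4.6 under Python 3.11.15. Alternatives were a stricter q, another merging gap, overlap, width range and gene distance, equal list lengths, distal regions only, the replicate block and leaving out each library.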

Additional observations from a re-analysis of the deposited data

How the results depend on the processing

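The MLL4 comparisons of the enhancers with primed and promoter-marked regions kept their direction under every alternative run. Several counts moved, and the tag comparisons with primed regions and with regions of 10 kb or more changed direction under some alternatives. At a −log10 q of 5 or more there were 3686 enhancers at 2456 genes, with 88 in all MLL4 lists, 19 FOXD2-only, 155 control-only, 89 in all tag lists and a mean tag share of 9.90%, since fewer peaks passed. At that q the tag difference from primed regions at 2000 to 5000 bp was -0.373 points, against -6.68 as deposited. There the MLL4 share difference between FOXD2 and control cells was -7.80 points (exact permutation test, p = 0.33). With equal list lengths that difference was -0.123 points, those from primed and promoter-marked regions were 5.50 and -9.29, 65 enhancers were in all MLL4 lists and 64 control-only, the MLL4 difference from primed regions at 2000 to 5000 bp was 5.78 points, and tag summits minus bases without H3K27ac was -0.372 points (0.523 as deposited). The tag difference from primed regions turned to -0.587 points with a 50% overlap, to -14.0 bases per kb, and to -6.68 points at 2000 to 5000 bp, the last chosen after seeing the data. Per kb, the differences from regions of 10 kb or more were 1.40 bases for MLL4 and 1.45 for tags. Tag sites numbered 1057 in at least 2 lists, 473 in both 6xHis lists and 549 in both FLAG lists.

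Leaving out 1 library at a time gave between 144 and 264 enhancers in all MLL4 lists, 51 to 705 FOXD2-only, 236 to 621 control-only and 280 to 452 in all tag lists. The MLL4 share difference ran from -8.57 to 2.05 points and the covered length from -11.9 to 6.50 bases per kb, positive only without the second FOXD2 MLL4 list. The tag difference ran from -1.44 to 2.36 points against primed regions and from -27.9 to 2.98 against regions of 10 kb or more, the last positive without the first FOXD2 H3K27ac list. Tag summits minus bases ran from -8.73 to 14.1 points. The cause of these changes was not tested. The replicate block gave the same MLL4 differences, -3.26 points and -2.70 bases per kb (exact sign-flip test, p = 1 for each; 2 pairs cannot go below 0.5). Deviations of same-numbered MLL4 libraries had a correlation of 0.0492, so the numbers are not taken as pairs. Peak names inside the H3K27ac, H3K4me3 and second MLL4 lists carry a replicate number 1 higher than the labels or, for H3K4me3, a number where the labels give none, alike in FOXD2 and control cells, and the labels' numbers were used. For H3K27ac it was -0.372: 3096 enhancers were covered more in FOXD2 cells in both same-numbered pairs and 3951 in both crossed pairs, a pairing chosen after seeing the data. In all, 14 of 477 alternative values changed sign. Another 58 moved by over 1.5 times, not counting the class comparisons rerun per kb.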

Other observations

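The enhancers were spread unevenly over the chromosomes relative to primed regions. Chromosome 19 had 383 enhancers and 130 primed regions, a ratio of 2.95, and chromosome 22 had 249 and 108, a ratio of 2.31. Chromosome X had the lowest ratio, 0.137, with 53 enhancers and 386 primed regions. Of the regions held by all 4 H3K27ac lists, 14.4 per 100 were enhancers of the set on chromosome X, 17.0 on chromosome 19 and 24.9 on chromosome 8, the highest.

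Enhancers were also looked up for the largest H3K27ac differences, after their values were seen. The enhancer inside MED15, which encodes a Mediator subunit, was covered by H3K27ac peaks over 99.5% and 100% of its bases in FOXD2 cells, against 12.8% and 18.4% in control cells, and had a peak in 1 tag list and no MLL4 list. The one near PRF1 was covered over 12.4% and 27.8% in FOXD2 cells, against 93.9% and 92.5% in control cells.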
